A study of Homo sapiens with 4 samples.

Results

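Mitochondrial large-subunit ribosomal proteins are the MRPL proteins that build the large subunit of the ribosome inside mitochondria. Members were the transcripts whose GENCODE 29 gene symbol is MRPL followed by digits only, and the files held 48 of them among 16292 transcripts. GENCODE 29 has 49 such symbols, and MRPL30 was not analysed here. Each member was represented by 1 transcript, was listed in all 4 libraries and passed the filter used for testing. Ribosome footprints (the mRNA pieces that ribosomes cover) were sequenced from HEK293, an established human embryonic kidney cell line. The groups were RPL4 mutant with erythromycin, RPL4 mutant without it, wild type with erythromycin and wild type without it, with 1 library in each. RPL4 is a protein of the cytosolic large subunit that lines its exit tunnel. The protocol shared by all 4 libraries names stable lines carrying GFP, wild type L4 or an L4 that lacks a loop, and lentiviral shRNA against RPL4 or a scrambled one. It also names CHX or LTM to hold ribosomes in place before lysis. The labels do not assign constructs or CHX and LTM to libraries, nor do they give the promoter of the transgene, the number of clones or the dose of erythromycin.

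All MRPL genes lie in the nucleus. Their mRNAs are read by cytosolic ribosomes, and the proteins are imported into mitochondria, usually by an N-terminal presequence rich in arginine and poor in acidic residues. There they join a ribosomal RNA to form the subunit that holds the peptidyl transferase centre, where peptide bonds are made, and the exit tunnel. Macrolides such as erythromycin bind in the tunnel of bacterial ribosomes, which mitochondrial ribosomes resemble. Footprints on MRPL genes report how the cytosol makes these proteins, and with no mRNA library a change in mRNA level cannot be told apart from a change in translation.

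The first 90 coding bases of the members that the results turn on are shown because a presequence would be encoded there. They were read from the GENCODE 29 transcripts counted by the authors, 5′ to 3′ from the start codon, with in-frame arginine codons in capitals.
MRPL35: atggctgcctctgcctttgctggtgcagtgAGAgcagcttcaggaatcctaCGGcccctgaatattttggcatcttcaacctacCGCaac
MRPL48: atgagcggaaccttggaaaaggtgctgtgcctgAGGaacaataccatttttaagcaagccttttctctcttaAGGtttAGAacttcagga
MRPL40: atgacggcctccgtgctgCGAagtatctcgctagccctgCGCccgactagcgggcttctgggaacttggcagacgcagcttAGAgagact
MRPL16: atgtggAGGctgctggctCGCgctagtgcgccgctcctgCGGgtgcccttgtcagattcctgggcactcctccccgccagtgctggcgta
MRPL41: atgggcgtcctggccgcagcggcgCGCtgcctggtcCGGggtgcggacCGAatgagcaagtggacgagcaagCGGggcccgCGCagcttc
MRPL4: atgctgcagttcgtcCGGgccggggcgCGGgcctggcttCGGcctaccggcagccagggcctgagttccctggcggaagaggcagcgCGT
MRPL22: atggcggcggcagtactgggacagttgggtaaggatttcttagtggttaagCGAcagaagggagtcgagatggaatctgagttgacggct

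Of these starts, that of MRPL41 holds 5 arginine codons and that of MRPL35 holds 3 with 0 acidic ones. The MRPL22 transcript is the exception, with 1 arginine codon and 4 acidic codons. Over the 48 members the median was 3 arginine codons and 1 acidic codon in the first 30 codons, against 2 and 3 over the 16081 coding transcripts of the files. At least 4 arginine codons stood in 41.7% of members and in 17.2% of all transcripts, and no acidic codon in 43.8% and 12.7%. On GRCh38, MRPL48 lies on chromosome 11 from 73787316 to 73864611 (plus strand), MRPL40 on chromosome 22 from 19431902 to 19436075 (plus) and MRPL16 on chromosome 11 from 59806135 to 59810872 (minus). MRPL41 lies on chromosome 9 from 137551199 to 137552555 (plus), MRPL4 on chromosome 19 from 10252227 to 10260025 (plus) and MRPL22 on chromosome 5 from 154941095 to 154966966 (plus). The coding sequences were short, with a median of 607.5 bases including the stop codon, against 1428 over all transcripts.

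Depth differed between the genotypes. The mutant libraries held 993461 reads with and 604506 without erythromycin, and the wild type libraries 2555613 and 2965243. A member had a median of 90.5 reads in the mutant with erythromycin, 56 in the mutant without it, 277 in wild type with it and 312 in wild type without it. RPL4 itself was at 1439 and 1707 RPKM (reads per kilobase of coding sequence, scaled to the library's total) in the mutant with and without the drug, against 2586 and 2515 RPKM in wild type. It fell by 0.72 on the log2 scale in the mutant over both treatments (SE 0.150, limma, adjusted p = 0.018), and a transgene copy would be read as RPL4. Of 6 markers that HEK293 cells can express, 5 were listed in every library, and NEFM was absent from the mutant without erythromycin. VIM, KRT8, KRT18 and INA stood between 57.7 and 1100 RPKM. PAX2 (1.61 to 2.69 RPKM) and NEFM (at most 0.73 RPKM) were as low as the markers of other cells. In the mutant without erythromycin both were below HBB (3.73 RPKM) and CDH5 (3.51 RPKM). Summed over the 6 HEK293 markers, of which VIM was the highest, the level was 1131 and 1373 RPKM in the mutant with and without erythromycin. In wild type it was 1949 and 1680 RPKM. The part of this difference in the results on the mutant was not tested. Markers of hepatocytes, leukocytes, erythroid cells, fibroblasts and endothelium were at or near 0, none above 3.73 RPKM.

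Most MRPL proteins occur once per ribosome, and their footprint levels per length were nevertheless spread widely. The median of the members' mean RPKM was 155, against 25.8 over all 9612 genes tested. In wild type without erythromycin the highest member stood 35.1-fold above the lowest. Leaving MRPL35 aside, MRPL41, a protein with no bacterial counterpart, was the highest member, at 732 and 607 RPKM in the mutant with and without erythromycin, against 735 and 873 RPKM in wild type. MRPL14, which sits at the face toward the small subunit, was at 381 and 521 RPKM in the mutant and 516 and 530 RPKM in wild type. MRPL51 was at 502 and 466 RPKM in the mutant and 583 and 490 RPKM in wild type. After these by mean level came MRPL53, MRPL20, MRPL27 and MRPL52, whose libraries lay between 302 and 483 RPKM. The 5 lowest members by mean level were MRPL12, MRPL1, MRPL46, MRPL39 and MRPL44.

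The stalk proteins, which recruit translation factors or guide tRNAs out, were the lowest group by level, with a median of the members' mean RPKM of 50.4. The medians were 141 near the peptidyl transferase centre, 157 for the tunnel wall and outlet and 184 for the central protuberance, the crown of the subunit. Other members had medians of 175 with and 182 without a bacterial counterpart. MRPL12, the protein of the stalk's tip, which the ribosome carries in several copies, was at 28.7 and 22.2 RPKM in the mutant with and without erythromycin and 22.3 and 24.9 RPKM in wild type. That made it the lowest member by mean level. Of its 28-base coding windows, 95.3% also occur in AC139530.2, a transcript model that overlaps it on the same strand and was listed at 12.9 and 8.71 RPKM in the mutant and 11.8 and 18.8 RPKM in wild type. How reads shared by both were assigned is not given in the sources used here. MRPL53 (100%) and MRPL38 (94.1%) also share most windows with another gene, and stood at means of 409 and 150 RPKM. MRPL46 shares 72.1% of its windows with AC013489.1 on the same strand, a limit to all its values here. Shorter members had higher levels, with Spearman's rho between coding length and RPKM of −0.54 to −0.50 over the 48 members and −0.47 to −0.45 over all genes tested.

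**Figure D1:**
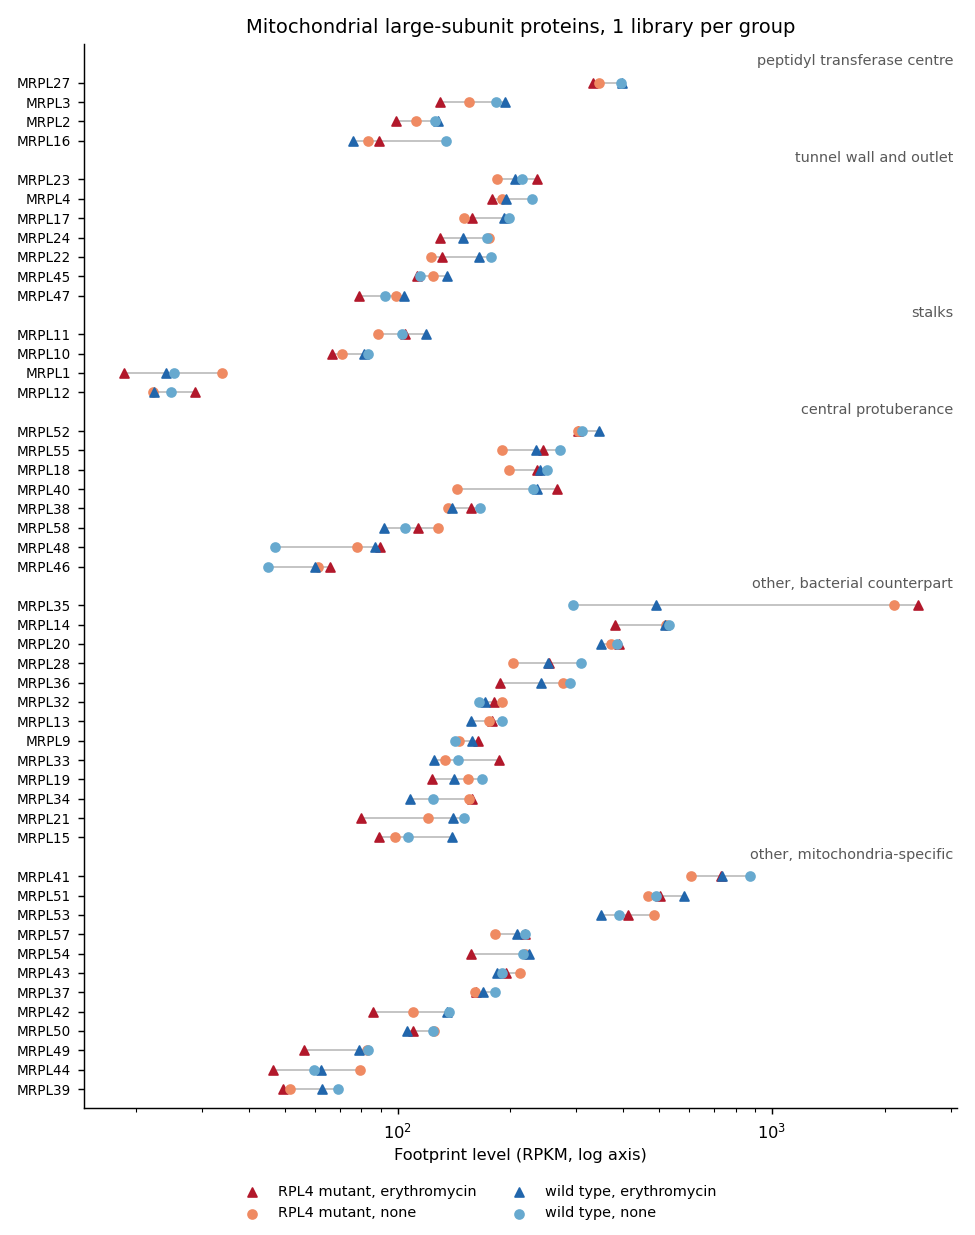
Footprint level of each of the 48 MRPL genes in the 4 libraries (RPKM, log axis), grouped by place in the subunit and ordered by mean level. A grey line joins the lowest and highest library of a gene, and MRPL35 is the 1 member whose libraries lie more than 2-fold apart.

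MRPL35 was the member with the highest mean level and the widest range between libraries. It is bL35, a small RNA-binding protein with a bacterial counterpart. The gene (ENST00000337109, GRCh38 chromosome 2, 86199457 to 86213794, plus strand, 4 exons) was at 2452 RPKM in the mutant with erythromycin and 2115 RPKM in the mutant without it. In wild type it was at 489 RPKM with and 294 RPKM without the drug. Both mutant libraries were thus several-fold above both wild type libraries. These levels rested on 1381 and 725 reads in the mutant and 709 and 495 reads in wild type.

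For MRPL35, mutant over wild type gave a log2 ratio of 2.26 (95% counting interval 2.13 to 2.40) with erythromycin and 2.87 (2.70 to 3.04) without it. Such ratios are of RPKM plus 1, centred on the median of the genes tested. Intervals treat reads as independent counts, so they cover counting error only. Over both treatments MRPL35 rose by 2.57 on the log2 scale in the mutant (SE 0.183, limma, adjusted p = 4.45e-07). Of the 9612 genes tested it ranked 6 by lowest p and 50 by highest log2 effect. It was 1 of 48 members that rose, where 1.66% of all genes did, and 0 members fell, where 0.281% did. At an unadjusted p under 0.05, 1 member was higher (6.89% of all genes) and 1 was lower (5.52%). This model has 1 residual degree of freedom per gene and rests largely on the spread shared across genes, not on replicates. By RPKM, MRPL35 ranked 85 and 98 of 16292 transcripts in the mutant with and without erythromycin, and 407 and 645 in wild type.

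No other member came near this range. The highest library of each of the other 47 members was at most 1.91-fold above its lowest, with a median of 1.36-fold, and 37 spanned less than 1.5-fold. Such spans were not computed over all genes tested, so these counts do not show whether MRPL genes were steadier than others. At least 2-fold higher in the mutant was 1 of 48 members with erythromycin (7.02% of all genes were) and 1 of 48 without it (5.29%), MRPL35 in both cases. At least 2-fold lower were 0 of 48 members with erythromycin (2.26%) and 0 of 48 without it (3.32%). In both treatments, 2.23% of all genes were at least 2-fold higher in the mutant.

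Several measurements bear on MRPL35 alone. Of the 540 windows of 28 bases in its coding sequence, 188 (34.8%) also occur in transcripts of 5 other genes, among them its pseudogenes MRPL35P1, MRPL35P2 and MRPL35P3 and the kinase gene ADK. None of the MRPL35 pseudogenes was listed in the files. Of the 14411 transcripts listed for wild type without erythromycin, 14285 matched coding transcripts. Absence from such files therefore does not show that no reads came from the pseudogenes. ADK was at 63.8 and 44.1 RPKM in the mutant with and without erythromycin and 83.0 and 66.3 RPKM in wild type. IMMT, the neighbour upstream on the opposite strand, which shapes mitochondrial cristae, was at 40.2 and 53.0 RPKM in the mutant and 46.9 and 75.4 RPKM in wild type. The part of shared windows in the MRPL35 result was not tested, and the positions of reads within the transcript were not analysed here.

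**Figure D2:**
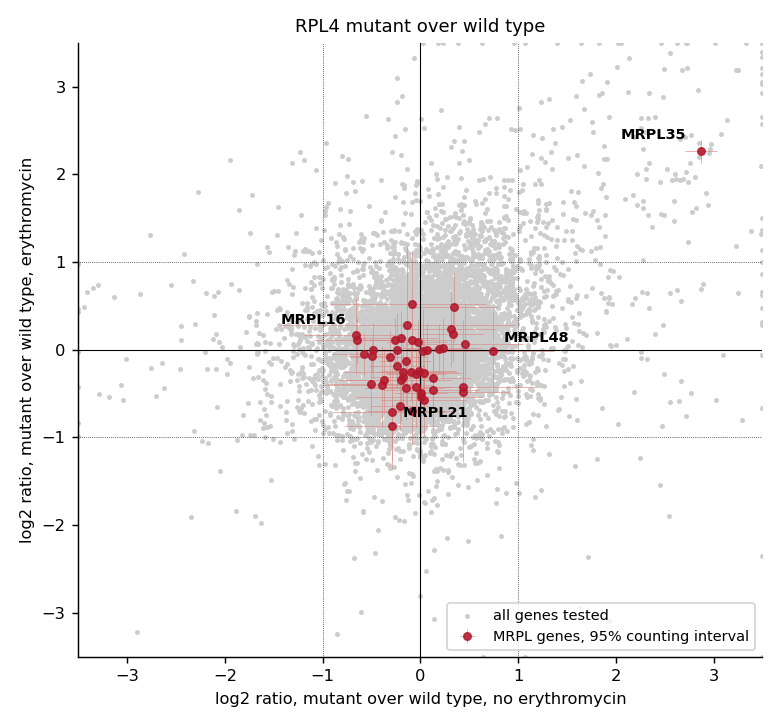
Log2 ratio of RPL4 mutant over wild type for the 48 MRPL genes (red, bars are 95% counting intervals) and all genes tested (grey), without erythromycin on the x axis and with it on the y axis. Dotted lines mark 2-fold, grey points beyond the axes are drawn at the edge, and MRPL35 at 2.87 and 2.26 lies outside the cluster of the other members.

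The other members lay slightly below the median gene in the mutant. Without MRPL35, their median log2 ratio was −0.19 with erythromycin and −0.091 without it, against 0 by construction for all genes tested. Over all 48 members it was −0.16 with and −0.090 without erythromycin, and −0.046 and −0.039 where only genes averaging at least 20 RPKM were used, so its size depended on the filter. Below 0 were 32 of these 47 with and 30 without the drug. The counting interval lay below the median gene for 13 of the 48 members with erythromycin (27.1%, where 16.9% of all genes did) and for 6 without it (12.5%, where 9.29% did). It lay above for 2 with erythromycin (16.1% of all genes) and 2 without it (9.49%). Interval counts, here and below, used the main centring and were not recomputed under other filters or scalings. They were also not matched for level, so the excess below the median gene may depend on the filter as the median did. Under this centring MRPL22 was the 1 member below in both treatments, and MRPL35 the 1 member above in both. The interval of MRPL22 with erythromycin ended close to the median gene, at −0.05. The share of all genes below or above in both treatments was not computed, so these counts are descriptions only. In RPKM, both mutant libraries were below both wild type libraries for 15 members (31.3%, against 21.7% of all genes) and above for 7 (14.6%, against 23.1%). Among these 47 members limma's lowest adjusted p was 0.337, that of MRPL21 (log2 −0.58, unadjusted p = 0.0322).

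Members near the peptidyl transferase centre had a median ratio (log2, mutant over wild type) of −0.37 with erythromycin and −0.19 without it. MRPL3, whose bacterial counterpart reaches toward the centre, was at 129 and 155 RPKM in the mutant with and without the drug and 194 and 183 RPKM in wild type. Both mutant libraries were below both wild type ones, with log2 ratios of −0.64 (−0.92 to −0.38) and −0.21 (−0.52 to 0.09). MRPL2, a core protein of the centre, was at −0.43 (−0.79 to −0.09) and −0.15 (−0.56 to 0.25). MRPL27, whose bacterial counterpart extends a tail toward the centre, was at 333 and 344 RPKM in the mutant and 397 and 396 RPKM in wild type, with log2 ratios of −0.32 (−0.59 to −0.05) and −0.18 (−0.51 to 0.14). MRPL16, which helps to position tRNA, was at 89.2 and 83.1 RPKM in the mutant and 76.1 and 134 RPKM in wild type, so that wild type without erythromycin stood above the other libraries. Its log2 ratio was 0.16 (−0.27 to 0.59) with and −0.66 (−1.19 to −0.18) without the drug.

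Members of the tunnel wall and outlet had medians of −0.32 with and −0.20 without erythromycin. MRPL4, the mitochondrial counterpart of RPL4, was at 178 and 189 RPKM in the mutant with and without the drug and 195 and 228 RPKM in wild type. Its log2 ratios of −0.19 (−0.44 to 0.05) and −0.24 (−0.53 to 0.03) included 0. MRPL22, which with MRPL4 forms the narrow part of the tunnel, was at 131 and 123 RPKM in the mutant and 165 and 178 RPKM in wild type. Both mutant libraries lay below both wild type ones, at −0.39 (−0.75 to −0.05) and −0.50 (−0.96 to −0.09), and limma's adjusted p did not pass. Of the outlet proteins, MRPL17 was at −0.34 and −0.37, MRPL23 at 0.14 and −0.20 and MRPL24 at −0.26 and 0.04. MRPL45, which anchors the ribosome to the inner membrane, was at −0.32 and 0.13, and MRPL47 at −0.46 and 0.12.

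In the central protuberance, the median was 0.03 with erythromycin and −0.14 without it. MRPL40 was at 266 and 144 RPKM in the mutant with and without the drug and 236 and 230 RPKM in wild type, so that the mutant without erythromycin was the low library. Its log2 ratios were 0.11 (−0.17 to 0.38) and −0.65 (−1.09 to −0.24). MRPL48 was at 89.8 and 77.7 RPKM in the mutant and 87.0 and 47.0 RPKM in wild type, where the drug-free wild type library was the low one. Its log2 ratios were −0.02 (−0.49 to 0.44) and 0.74 (0.10 to 1.36). The second of these rested on 30 reads in the mutant and 89 in wild type. MRPL46 was at 0.07 (−0.41 to 0.54) and 0.46 (−0.16 to 1.05), and MRPL58, which also acts as a peptidyl-tRNA hydrolase, at 0.24 (−0.19 to 0.66) and 0.31 (−0.18 to 0.77). The stalk proteins had medians of −0.30 and −0.16, and the intervals of all 4 included the median gene in both treatments, which with 4 genes is near the shares of all genes given above.

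Among the remaining members, MRPL21 had the lowest ratio with erythromycin. It was at 79.8 and 120 RPKM in the mutant with and without the drug and 141 and 150 RPKM in wild type, with log2 ratios of −0.87 (−1.36 to −0.43) and −0.29 (−0.78 to 0.17). MRPL14 was at −0.50 (−0.76 to −0.25) and 0.00 (−0.27 to 0.27), and MRPL41 at −0.07 (−0.27 to 0.12) and −0.50 (−0.75 to −0.25), so these abundant members had low ratios in different treatments. MRPL51 was at −0.28 (−0.52 to −0.04) and −0.05 (−0.36 to 0.25). MRPL15 was at 89.2 and 98.4 RPKM in the mutant and 140 and 107 RPKM in wild type, with log2 ratios of −0.70 (−1.08 to −0.35) and −0.09 (−0.54 to 0.34). MRPL42 was at 86.0 and 110 RPKM in the mutant and 135 and 137 RPKM in wild type, at −0.71 (−1.25 to −0.21) and −0.29 (−0.89 to 0.26). MRPL39 was at −0.40 in both treatments, with intervals that included 0, and both of its mutant libraries lay below both wild type ones. For MRPL15 and MRPL42 the lowest library was the mutant with erythromycin. MRPL34 had the highest ratio after MRPL35 and MRPL33 with erythromycin. It was at 158 and 155 RPKM in the mutant and 108 and 124 RPKM in wild type. Its log2 ratios were 0.48 (0.09 to 0.88) and 0.35 (−0.12 to 0.79). MRPL33 was at 0.52 (−0.09 to 1.11) with erythromycin, on 39 reads in the mutant and 67 in wild type. The MRPL33 transcript counted is annotated as a nonsense-mediated decay target, as for 2 members in all. Across members, the ratios with and without the drug had a Spearman's rho of 0.12 (n = 48, against 0.25 over all genes tested), and 20 members had opposite signs (41.7%, against 40.7% of all genes).

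MRPL35 also decided the share of all reads that fell on the MRPL genes. The 48 members took 0.631% (95% exact binomial interval 0.615% to 0.646%) of reads in the mutant with erythromycin and 0.617% (0.598% to 0.637%) without it. In wild type they took 0.558% (0.548% to 0.567%) and 0.571% (0.563% to 0.580%). Without MRPL35 the order turned, with 0.492% (0.478% to 0.506%) and 0.497% (0.480% to 0.515%) in the mutant and 0.530% (0.521% to 0.539%) and 0.554% (0.546% to 0.563%) in wild type. MRPL35 held 22.0% and 19.4% of all member reads in the mutant with and without the drug, against 4.98% and 2.92% in wild type. The differences between shares compare single libraries and were not tested.

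**Figure D3:**
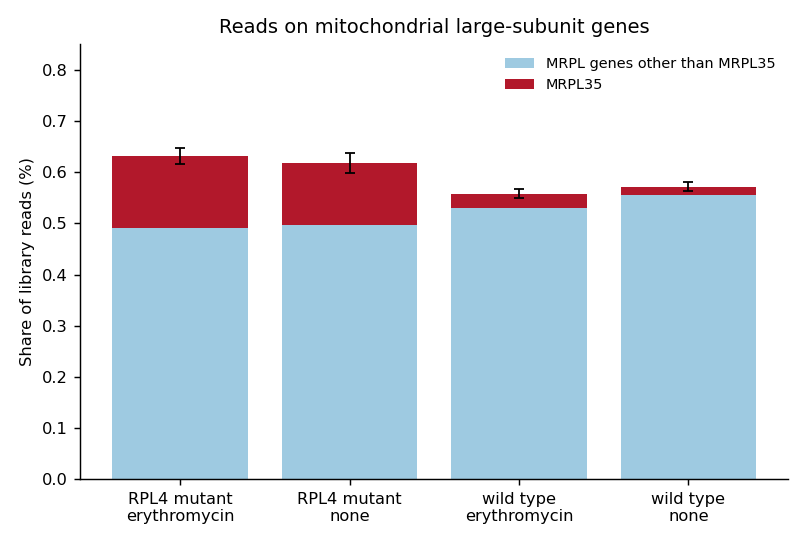
Share of library reads (%) on the 48 MRPL genes in each library, split into MRPL35 (red) and the other 47 members (blue), with the 95% exact binomial interval of the total. The red part is larger in the mutant libraries, and the blue part is smaller there than in wild type.

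Erythromycin left the members close to the median gene in both genotypes. The median log2 ratio of erythromycin over none was −0.074 in the mutant and −0.054 in wild type. At least 2-fold higher were 0 of 48 members in the mutant (6.22% of all genes were) and 0 of 48 in wild type (1.73%). At least 2-fold lower were 0 of 48 in the mutant (3.39%) and 0 of 48 in wild type (1.54%). The shares of all genes past 2-fold, here and elsewhere, were not matched for level. By median of mean RPKM, members stood at 155 and all genes tested at 25.8. In limma's model over both genotypes 0 members rose, where 0.239% of all genes did, and 0 fell, where 0.0104% did. At an unadjusted p under 0.05, 1 member was higher (3.78% of all genes) and 0 were lower (2.4%). That member was MRPL35, with a log2 effect of 0.45 (SE 0.183, limma, unadjusted p = 0.0244, adjusted p = 0.67).

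Counting intervals of erythromycin over none lay above the median gene for 2 of 48 members in the mutant (7.21% of all genes) and 6 in wild type (14.2%). They lay below for 5 in the mutant (7.69%) and 7 in wild type (13.9%). In RPKM, both treated libraries were above both untreated ones for 5 members (10.4%, against 15.2% of all genes) and below for 7 (14.6%, against 13.1%). MRPL35 was above in both genotypes, with log2 ratios of 0.16 (0.03 to 0.29) in the mutant and 0.75 (0.58 to 0.92) in wild type. MRPL48 had the highest ratio in wild type at 0.89 (0.51 to 1.30), and was at 0.15 (−0.51 to 0.85) in the mutant. MRPL16 had the lowest in wild type at −0.80 (−1.10 to −0.52), and was at 0.05 (−0.55 to 0.66) in the mutant. MRPL46 was at 0.06 (−0.60 to 0.74) in the mutant and 0.43 (0.06 to 0.81) in wild type, and MRPL11, of the stalk base, at 0.18 (−0.47 to 0.86) and 0.23 (−0.08 to 0.54). MRPL4 was at −0.14 (−0.48 to 0.20) in the mutant and −0.21 (−0.38 to −0.05) in wild type.

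In the mutant, MRPL40 had the highest ratio of erythromycin over none at 0.83 (0.38 to 1.30), and was at 0.06 (−0.15 to 0.26) in wild type. MRPL44, which carries an RNase III-like fold, was at 46.3 RPKM with and 79.5 RPKM without the drug in the mutant, and at 62.3 and 59.8 RPKM in wild type. Its log2 ratio was −0.82 (−1.45 to −0.22) in the mutant and 0.07 (−0.24 to 0.39) in wild type. MRPL1, of the L1 stalk, had the lowest ratio in the mutant at −0.89 (−1.93 to 0.07), on 18 and 20 reads. MRPL36, a very small protein, was at −0.61 (−1.18 to −0.04) in the mutant and −0.25 (−0.52 to 0.03) in wild type. Of the 48 members, 7 had ratios above 0 in both genotypes (14.6%, against 25.3% of all genes), 18 below 0 in both (37.5%, against 25.3%) and 23 on opposite sides (47.9%, against 49.4%). Spearman's rho between the responses was −0.052 over the members and 0.028 over all genes tested.

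**Figure D4:**
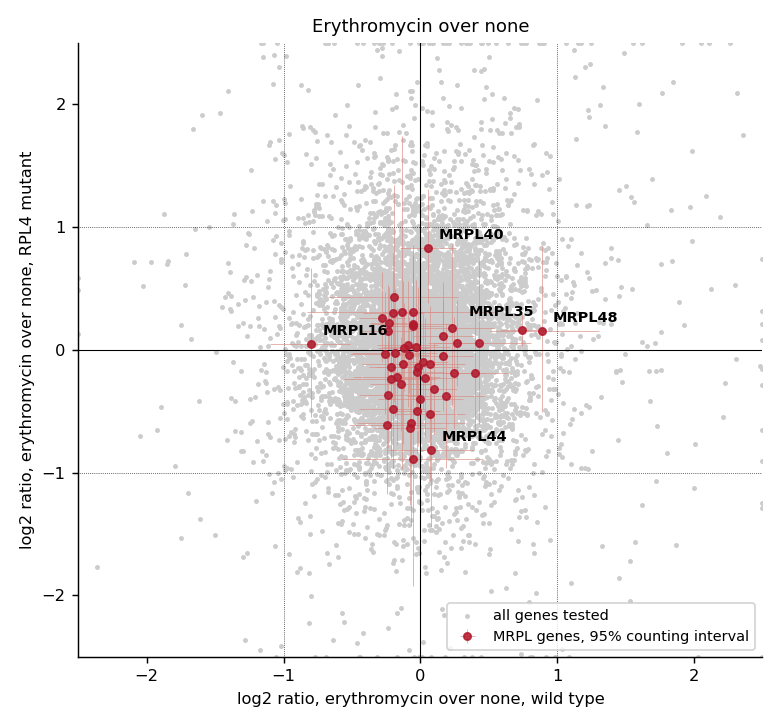
Log2 ratio of erythromycin over none for the 48 MRPL genes (red, bars are 95% counting intervals) and all genes tested (grey), with wild type on the x axis and the RPL4 mutant on the y axis. Dotted lines mark 2-fold, grey points beyond the axes are drawn at the edge, and all red points lie inside 2-fold on both axes.

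The difference between the responses, mutant minus wild type, had a median of −0.12 over the members. At least 2-fold were 0 of 48 members higher (8.34% of all genes) and 0 lower (5.58%). The interval of the difference lay above 0 for 4 members (9.16% of all genes), namely MRPL16, MRPL28, MRPL40 and MRPL41. It lay below 0 for 7 (10.4%), namely MRPL3, MRPL14, MRPL15, MRPL35, MRPL44, MRPL48 and MRPL54. MRPL44 (−0.89, interval −1.57 to −0.25) and MRPL16 (0.84, 0.21 to 1.49) marked the ends of these. For MRPL35 the difference was −0.59 (−0.80 to −0.38). MRPL28 and MRPL54 were named after their values were seen.

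Other parts of the mitochondrial translation machinery gave values beside these. The 32 genes of the small-subunit list had medians of −0.01 and −0.057 for mutant over wild type with and without erythromycin. For erythromycin over none their medians were 0.052 in the mutant and −0.028 in wild type. That list was taken by symbol (MRPS followed by digits, and a few named genes), and the place of each protein was not checked. In limma 0 of 32 rose in the mutant (1.66% of all genes did) and 0 fell (0.281%). At an unadjusted p under 0.05, 0 were higher (6.89% of all genes) and 2 were lower (5.52%). GADD45GIP1, a large-subunit protein outside the MRPL names, was at 564 and 450 RPKM in the mutant with and without the drug and 503 and 471 RPKM in wild type. The 18 large-subunit assembly factors had medians of −0.10 and −0.066 for mutant over wild type, and the 12 mitochondrial translation factors −0.017 and 0.0065. In limma 0 genes of either list rose or fell for the mutant, also at an unadjusted p under 0.05. The unadjusted shares of all genes were 6.89% higher and 5.52% lower. For erythromycin 0 rose or fell after adjustment. Unadjusted, 1 assembly factor was higher (3.78% of all genes) and 1 translation factor lower (2.4%).

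The 7 measured genes of the mitochondrial genome, which ribosomes holding the MRPL proteins translate, were above the median gene in the mutant for 7 of 7 with erythromycin and 6 of 7 without it. The lowest log2 ratio without the drug was −1.04, with its counting interval below the median gene. For erythromycin over none, 7 of 7 were below the median gene in wild type (median −0.96) and 3 of 7 in the mutant (median 0.11). Their reads made up 0.224% and 0.229% of the mutant libraries with and without erythromycin, against 0.0816% and 0.144% of the wild type libraries. For mutant over wild type, 4 of 7 rose in limma over both treatments (MT-CO1, MT-CO2, MT-ND5 and MT-ND6), and 0 fell. Of all genes 1.66% rose and 0.281% fell. For cytosolic large-subunit proteins other than RPL4 (47 tested), the medians of mutant over wild type were −0.37 and −0.21 with and without the drug. In limma 0 of these 47 rose or fell. At an unadjusted p under 0.05, 1 was higher (6.89% of all genes) and 19 were lower (5.52%). Whether the MRPL genes differ from these lists was not tested.

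**Figure D5:**
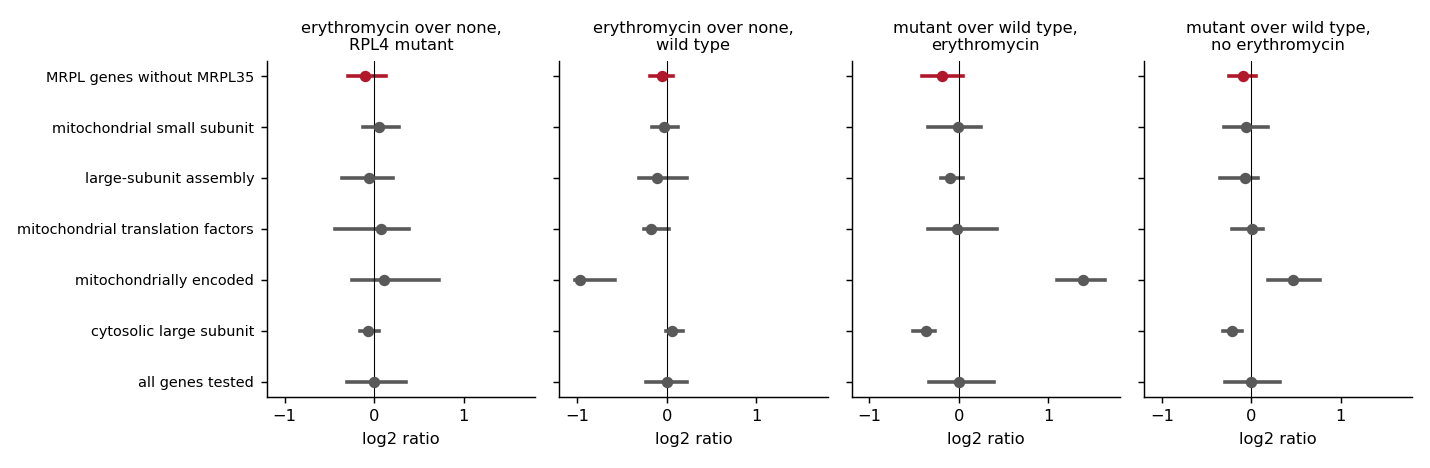
Median log2 ratio (point) and quartiles (line) of the MRPL genes without MRPL35 (red), other lists and all genes tested (grey) in the 4 comparisons. The red medians lie between −0.19 and −0.055, and the mitochondrially encoded genes lie at −0.96 in wild type with erythromycin over none and at 1.38 in mutant over wild type with erythromycin.

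The promoters of the members were compared as a further shared feature. RefSeq promoter windows (GRCh38.p14) ran from 250 bases before to 50 bases after the RefSeq gene start. That start can differ from the start of the transcript counted here. Windows were matched for 41 of the 48 members, and MRPL35 was not among them. The ETS factor motif CCGGAAG, on either strand, stood in 39.0% of the 41, in 21.7% of the promoters of genes tested and in 10.7% of all promoters. The YY1 motif AANATGGC stood in 36.6%, 11.5% and 6.82%. The NRF1 motif, which is GCGC, 2 bases of any kind and GCGC (12.2%, 17.8% and 8.78%) and the box CCAAT (26.8%, 38.0% and 35.7%) are given in the same order. These shares are descriptions, and their differences were not tested. Windows of 30 bases around the ETS motif are shown for members whose ratios stood at the edges, to show it in either orientation. All windows shown lie within the span of the counted transcript, downstream of its start. The motif or its reverse complement is in capitals on the strand of the gene.
MRPL40 (chr22:19432523-19432552, plus strand): ggggcgcacgcCCGGAAGcggcgagggtag
MRPL16 (chr11:59810766-59810795, minus strand): agtgaacacaaCTTCCGGccccactgagcg
MRPL48 (chr11:73787800-73787829, plus strand): aatttcagaagCTTCCGGaactaaaatgat

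MRPL40, MRPL16 and MRPL48 were picked by their ratios from the 16 members with the motif. Their ratios of mutant over wild type without erythromycin were −0.65, −0.66 and 0.74. Any relation between the motif and the ratios was not tested. A match is a string of letters and was not tested for binding.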

How the data were processed

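Footprint libraries from HEK293 cells were analysed, 1 per group. The deposited files give RPKM per transcript as made by the authors and list only values above 0, so an absent transcript was read as 0. Per the submitters' processing notes, cutadapt and STAR were used with GRCh38; roles and versions are not stated. The read counter is not given in the sources used here. RPKM times coding length (stop codon included) was whole, within 0.001 reads, for 99.2% of matched transcripts, which gave library totals and reads; 16172 of 16292 transcripts matched GENCODE 29. Members and gene lists were chosen with earlier results of these data known.

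Values were tested as log2(RPKM + 1) for the 9612 genes averaging 5 RPKM or more, centred on the median gene. limma 3.58.1 (R 4.3.3) fitted genotype and treatment additively with trended variances, called at an adjusted p under 0.05 (Benjamini-Hochberg over all genes). The model was also run on simulated reads with counting error only, so its error rate on these libraries was not tested. Single comparisons have no replicate and no p. Counting intervals are exact binomial; that of the difference between responses uses a normal approximation on log reads. They cover counting error only, and footprints carry no molecular identifiers as far as the labels say.

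Named members were MRPL35, MRPL4, those near the peptidyl transferase centre or tunnel, the 8 highest and 5 lowest by mean level, the 6 highest and 6 lowest by mean ratio for either factor, and those past 2-fold or limma's threshold. MRPL28, MRPL33, MRPL38 and MRPL54 also appear beside counts. Sequences came from GENCODE 29 and RefSeq. Alternatives were other pseudocounts, filters and scalings and simpler limma models; leaving out MRPL35 was chosen after seeing the data.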

Additional observations from a re-analysis of the deposited data

How the results depend on the processing

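No paired analysis was possible because each group has 1 library, so that no replicate numbers are shared between groups. Under 7 alternative limma settings MRPL35 rose in the mutant (log2 2.52 to 2.65, adjusted p from 5.32e-18 to 0.0208), and 0 other members rose or fell for either factor. No member was past 2-fold under any other setting except MRPL35 in the mutant; without it, 0 were at least 2-fold higher in either treatment. All 5 medians of the members stayed below 0 under the 8 alternatives, but sizes moved. That of mutant over wild type with erythromycin (−0.16) was −0.20 with no filter, −0.046 with a mean of at least 20 RPKM, −0.097 with at least 20 reads expected (45 members), −0.096 not centred and −0.080 scaled to the upper quartile. Without erythromycin (−0.090) it was −0.039 with a mean of at least 20 RPKM. Erythromycin over none in wild type (−0.054) was −0.087 scaled to the upper quartile, and the difference between responses (−0.12) was −0.053 not centred. The cause was not tested. Without the most-read member, MRPL35 in the mutant and MRPL41 in wild type, the share of reads was 0.492% and 0.497% in the mutant with and without erythromycin and 0.527% and 0.535% in wild type. Depth limits the mutant comparisons, since a median member had 56 reads there without the drug.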
